A study of Mus musculus with 5 samples.

Results

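The regions described here are 240 windows of the mouse genome, each 1 Mb wide, in which few sequencing reads could be given to one parent. SIRT7 was profiled by ChIP-seq, the sequencing of DNA that is pulled down with an antibody, in female C57BL6/CAST hybrid cells labelled TTF, a term the labels leave unexplained. There are 4 groups: SIRT7 ChIP from wild-type cells (WT, 2 libraries), SIRT7 ChIP from SIRT7-KO cells (KO, 1 library), and input chromatin from each (1 library apiece). All groups share the hybrid background and sex; the labels give neither an age, nor how the knockout was made, nor whether KO cells are 1 clone or the WT libraries come from separate cultures. P-values therefore measure only the spread between the WT ChIP libraries, which may be technical. Each library was deposited as read counts per bin of the mm10 build in 4 columns, which hold the total, those given to genome1, those given to genome2 and those left unassigned. The column names of all 5 libraries also carry the tag dCx, which they leave unexplained. Members were chosen by WT input counts: they are the 240 bins with the highest ratio of unassigned to all reads in the WT input, out of 2414 bins of chromosomes 1 to 19 that had a mean of at least 100 reads over the 5 libraries.

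A read of a hybrid can be given to one parent only where it covers a position at which the parental genomes differ and where its place of origin is clear. Stretches in which the strains differ at few positions, and stretches built of near-identical copies, both leave reads unassigned. Families of receptors, defensins, urinary proteins and zinc-finger genes grew in the mouse lineage by tandem duplication, and many of their members still resemble each other closely. SIRT7 is a sirtuin, a protein deacylase dependent on NAD, found largely in the nucleolus.

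Sequences from the bins with the highest shares show what such copies look like. They are the 150 bases before the annotated gene start, taken from the RefSeq promoter table of GRCm38.p6 (the mm10 assembly) and written 5′ to 3′ on the gene's strand. Pairs were compared base by base without gaps, so 1 inserted or lost base can count as many differences, also in the choice of the closest pair. Capitals mark positions at which the printed pair differs in this count. They were chosen, after the shares were known, as the closest pair of protein-coding promoters in 6 of the 10 highest-ranked bins; a pair that is identical over these bases is printed once. Vmn2r39 and Vmn2r49 encode type 2 vomeronasal receptors, the pheromone receptors of sensory neurons in the nose, and lie at chr7:9030683-9030832 and chr7:9992140-9992289, both on the minus strand. Their promoters differ at 16 of 150 positions.
Vmn2r39: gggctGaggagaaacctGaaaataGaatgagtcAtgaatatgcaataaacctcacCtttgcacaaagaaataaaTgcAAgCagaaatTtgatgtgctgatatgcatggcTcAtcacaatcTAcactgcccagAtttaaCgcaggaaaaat
Vmn2r49: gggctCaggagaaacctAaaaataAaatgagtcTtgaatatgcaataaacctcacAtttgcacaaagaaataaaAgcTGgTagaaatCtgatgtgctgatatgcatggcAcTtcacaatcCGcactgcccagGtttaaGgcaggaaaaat
The type 1 vomeronasal receptor genes Vmn1r138 and Vmn1r257, at chr7:22028898-22029047 and chr7:22692318-22692467 on the minus strand, have 0 differences in these bases.
Vmn1r138 and Vmn1r257: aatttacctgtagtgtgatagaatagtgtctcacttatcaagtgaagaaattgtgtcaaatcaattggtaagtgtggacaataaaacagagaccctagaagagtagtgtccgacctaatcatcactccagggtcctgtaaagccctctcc
Likewise identical are Pramel37 and Pramel39, at chr5:94070546-94070695 and chr5:94306797-94306946 on the minus strand. Counted without gaps, they differ at 38 of the 250 bases before the start but at none of the 150 shown.
Pramel37 and Pramel39: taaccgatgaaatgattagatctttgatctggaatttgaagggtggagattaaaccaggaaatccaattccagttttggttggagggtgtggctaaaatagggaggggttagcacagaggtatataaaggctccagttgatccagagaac
On chromosome 2, Gm14434 and Gm14308, at chr2:176486750-176486899 and chr2:176636320-176636469 on the minus strand, match at every one of the 250 bases.
Gm14434 and Gm14308: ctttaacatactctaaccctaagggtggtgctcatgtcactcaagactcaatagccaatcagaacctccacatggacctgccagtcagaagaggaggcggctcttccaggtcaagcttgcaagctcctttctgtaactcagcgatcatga
At the top of the ranking, Gm2977 and Gm3050, at chr14:3503866-3504015 and chr14:3743259-3743408 on the plus strand, also match at every one of the 250 bases.
Gm2977 and Gm3050: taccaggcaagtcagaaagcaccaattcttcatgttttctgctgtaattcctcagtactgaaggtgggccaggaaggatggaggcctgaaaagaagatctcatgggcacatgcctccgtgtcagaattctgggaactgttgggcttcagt
In the bin of rank 7 the closest pair of olfactory receptor promoters was Olfr1251 and Olfr1253, at chr2:89667885-89668034 and chr2:89752827-89752976 on the minus strand. Counted without gaps, they differ at 32 of 150 positions, all but 1 of them among the 50 bases farthest from the start. Much of that count comes from a shift of 1 base between the sequences, so it does not measure how distant they are.
Olfr1251: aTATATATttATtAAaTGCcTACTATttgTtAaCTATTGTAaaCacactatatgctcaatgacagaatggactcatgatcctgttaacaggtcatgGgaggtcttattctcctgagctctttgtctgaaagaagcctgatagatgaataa
Olfr1253: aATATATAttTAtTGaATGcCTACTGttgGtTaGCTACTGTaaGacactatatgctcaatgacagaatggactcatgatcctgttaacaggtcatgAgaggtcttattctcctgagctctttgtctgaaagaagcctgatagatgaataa
Not every member has such promoter pairs, and sequence outside promoters was not compared. Med12l, a gene for a Mediator kinase-module subunit, lies in the bin of rank 25 on chromosome 3, where 0 promoters share sequence with another gene's promoter; its upstream bases at chr3:59006828-59006977 on the plus strand are shown for contrast.
Med12l: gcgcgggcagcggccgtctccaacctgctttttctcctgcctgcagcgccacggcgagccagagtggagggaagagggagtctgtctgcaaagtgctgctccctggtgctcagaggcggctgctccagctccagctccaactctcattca

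The share that chose the members ran from 61.6% to 99.7% of WT input reads, with a median of 76.0%, against a median of 40.8% in the 2174 other bins. These values are a description of the choice and were not tested. Among members, 88 were over 80%, 32 over 90% and 21 over 95%. No gap marked the end of the list: the last member, on chromosome 7 from 145000001 with the itch receptor gene Mrgprd and the lysosomal channel gene Tpcn2, had 61.604%, and the first bin outside, on chromosome 14 from 48000001 with the transcription factor gene Otx2, had 61.558%. The 3 ChIP libraries and the KO input, which entered the minimum read count but not the ranking, gave the same picture. Medians over the members were 74.4% in WT ChIP 1, 75.3% in WT ChIP 2, 76.3% in KO ChIP and 75.9% in the KO input; the other bins had medians of 38.3%, 39.8%, 42.1% and 41.1%. Ranking on those libraries would have returned 234, 234, 225 and 236 of the same 240 bins. The plot of share by rank shows how closely the libraries track each other.

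**Figure D1:**
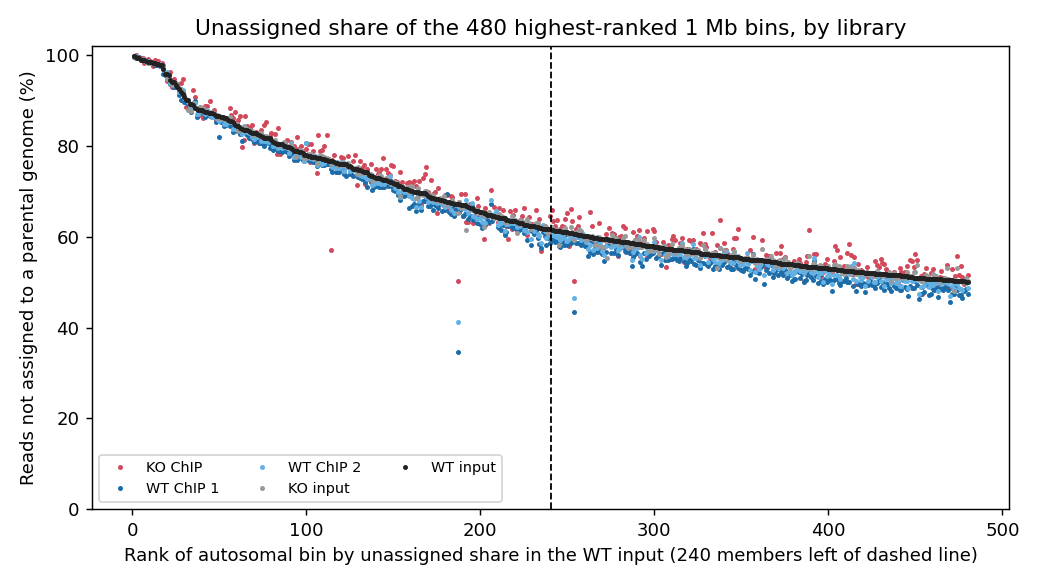
Unassigned reads as a percentage of all reads (vertical axis) for the 480 highest-ranked autosomal bins (horizontal axis, rank by the WT input), 1 point per library and bin, with members left of the dashed line. The 5 libraries follow one curve from 99.7% down, and the WT ChIP points of 1 bin near rank 187 fall to 34.7% and 41.3%.

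A pair of members departed from that agreement by over 10 percentage points. The bin on chromosome 1 from 24000001 to 25000000, which holds the collagen genes Col9a1 and Col19a1 and ranked 187, had an unassigned share of 67.2% in WT input and 65.1% in KO input. By contrast its share in WT ChIP was 34.7% and 41.3%, and in KO ChIP it was 50.2%. The 95% Wilson intervals, which cover counting error only, ran from 34.3% to 35.1%, 40.9% to 41.7% and 47.9% to 52.5%. It ranked among the members by its input reads, and its ChIP values are described below with this in view. The other was the end bin of chromosome 2 from 182000001, of rank 114, with 57.1% in KO ChIP against 75.9% in the KO input and 76.7% in the WT input; its WT ChIP shares lay within 2 points of the latter. It had only 28 KO ChIP reads, and the Wilson interval of that share ran from 39.1% to 73.5%.

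Members were spread over all 19 autosomes and unevenly. Chromosome 2 held 35 members of 180 tested bins (19.4%), chromosome 17 held 16 of 92 (17.4%) and chromosome 14 held 18 of 122 (14.8%), against 9.94% over all autosomes. At the other end, chromosome 18 held 2 of 88, chromosome 10 held 4 of 128 and chromosome 11 held 4 of 119. The first 12 tested bins of each chromosome, next to the centromere, held 30 of 228 (13.2%), the last 12 held 28 of 228 (12.3%) and the interior held 182 of 1958 (9.30%). The very first tested bin was a member on 8 of 19 chromosomes and the very last on 11 of 19; many of these end bins are partly filled.

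**Figure D2:**
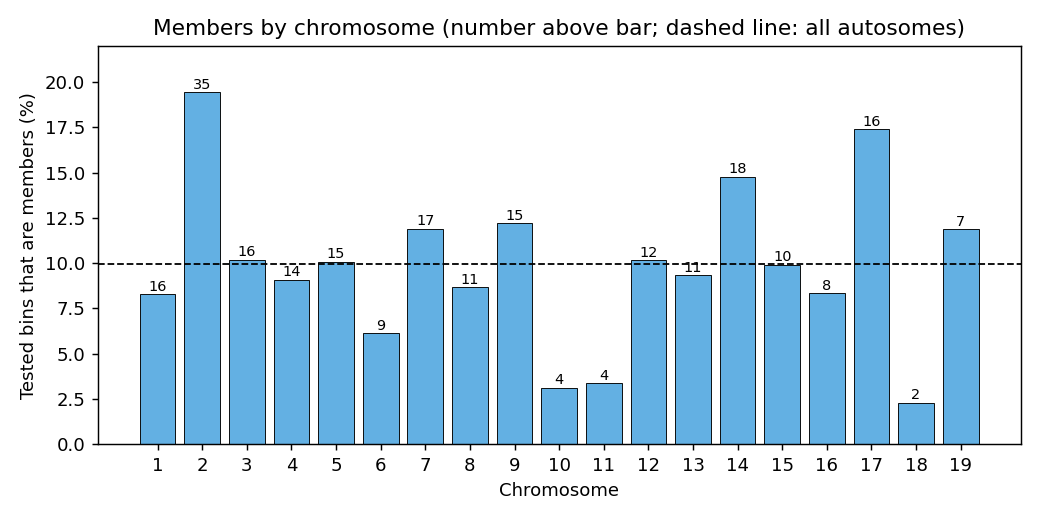
Percentage of tested 1 Mb bins that are members (vertical axis) on each autosome (horizontal axis), with the number of members above each bar and the value over all autosomes as a dashed line. Chromosome 2 stands highest at 19.4% and chromosome 18 lowest at 2.27%, against 9.94% in all.

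Members were often neighbours: 158 lay in 49 runs of 2 or more adjoining bins and 82 stood alone. The longest run covered 12 bins of chromosome 2, from 79000001 to 91000000, with 278 protein-coding genes that include the integrin genes Itga4 and Itgav, the Wnt antagonist Frzb and a large array of olfactory receptors. The next covered 8 bins of chromosome 2, from 39000001 to 47000000, and held only 10 protein-coding genes, among them the large lipoprotein receptor gene Lrp1b and the repressor gene Zeb2. A run of 7 bins on chromosome 17, from 35000001 to 42000000, covered much of the major histocompatibility complex (MHC), with H2-D1, the cytokine gene Tnf and the pluripotency factor gene Pou5f1. Runs of 6 bins lay on chromosome 12 from 18000001 to 24000000, mostly predicted genes, and on chromosome 15 from 19000001 to 25000000, with 4 protein-coding genes that include the cadherin genes Cdh12 and Cdh18.

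These runs differed in how many of their promoters share sequence, the only part of the bins that was compared. A promoter (RefSeq, 300 bases: 250 before the start and 50 after) was called shared where any 50-base window of it, on either strand, also occurs in a promoter of another gene that does not overlap it. In the run on chromosome 12, 34 of 56 promoters were shared, and in a run of 5 bins at the start of chromosome 14, from 3000001 to 8000000, 145 of 156. In the 8-bin run of chromosome 2 it was 1 of 30, in the 12-bin run 33 of 264 and in the chromosome 15 run 2 of 7. A run of 4 bins on chromosome 3 from 59000001 to 63000000, which holds the purinergic receptor genes P2ry12 to P2ry14, had unassigned shares of 86.4% to 93.4% and 0 shared promoters of 31.

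Over all members, 880 of 3560 promoters were shared (24.7%), against 1223 of 27805 in the other bins (4.40%). The shared partner usually lay close by, since 820 of the 880 had one within 5 Mb. The share fell along the ranking, from 46.7% in ranks 1 to 60 and 25.4% in ranks 61 to 120 to 11.3% and 11.5% in the last 2 groups of 60. Even so, 107 of the 221 members with a listed promoter had none that was shared, and in 40 the majority were shared. Of the 2614 protein-coding genes in members, 2198 (84.1%) had an entry in the promoter table.

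**Figure D3:**
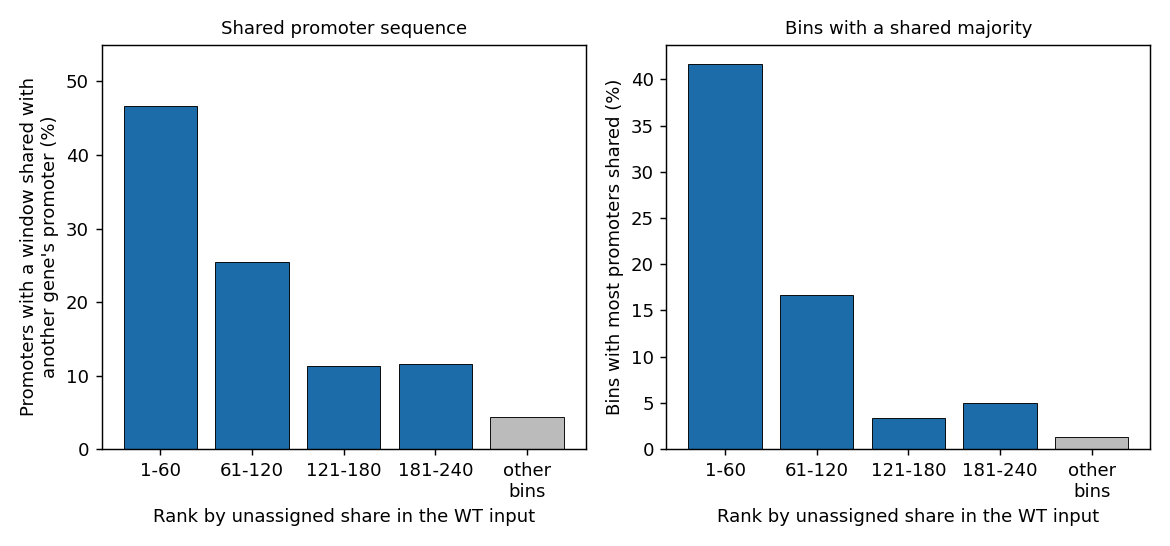
Left, percentage of RefSeq promoters with a 50-base window shared with another gene's promoter; right, percentage of bins in which the majority of promoters are shared; horizontal axis, members by rank in groups of 60 and the other 2174 autosomal bins. The left bars fall from 46.7% in ranks 1 to 60 to 11.5% in ranks 181 to 240, with 4.40% in the other bins.

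The members, 9.94% of bins, held 2614 of 20556 autosomal protein-coding genes (12.7%), 1498 of 8798 pseudogenes (17.0%), 335 of 1276 small nucleolar RNA (snoRNA) genes (26.3%) and 93 of 386 tRNA genes (24.1%). The snoRNA figure rests on 1 bin, on chromosome 7 from 59000001, with 206 genes of the imprinted Snord115 and Snord116 arrays. Likewise 45 tRNA genes lay in the bin on chromosome 13 from 23000001 and 25 in the bin on chromosome 3 from 96000001. The median member held 7 protein-coding genes and 4 pseudogenes, against 5 and 3 elsewhere, and 26 members had no protein-coding gene.

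Of 59 gene families listed by symbol, 22 had at least 5 genes in all and at least 20% of them in members. Chemosensory receptors gave the largest numbers. Olfactory receptors, which bind odorants in the nasal epithelium, had 365 of 1103 genes in 20 members. Type 1 vomeronasal receptors had 139 of 229 genes in 10 members and type 2 receptors 38 of 122 genes in 8. The formyl peptide receptors, which sense bacterial peptides on leukocytes, had 3 of 7.

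Families of host defence followed. All 29 listed alpha defensin genes, the antimicrobial peptides of intestinal Paneth cells, lay in 1 member, and 22 of 42 beta defensin genes in 3 members. MHC genes, which present peptides to T cells, had 25 of 35 in 4 members. T cell receptor segments had 81 of 206, of which 80 lay in the bin on chromosome 14 from 53000001. PYHIN genes, sensors of foreign DNA, had 8 of 9, guanylate-binding proteins 5 of 10, Nlrp genes 6 of 18 and Ly6 genes 6 of 21.

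Further families had roles in secretion, detoxification, germ cells and chromatin. Major urinary proteins, pheromone carriers made in the liver, had 20 of 24 genes in 2 members; secretoglobins had 10 of 40, glutathione transferases 5 of 23 and the ribonuclease A family 5 of 20. Among genes known from oocytes, early embryos and testis, Obox homeobox genes had 5 of 6, Pramel genes 20 of 45, Speer genes 3 of 10 and Zscan genes 4 of 16. Zfp zinc-finger genes, many of which repress transposons, had 87 of 388 in 32 members. Replication-dependent histone genes, present in many near-identical copies, had 49 of 81, with 31 in the bin on chromosome 13 from 23000001 and 10 in that on chromosome 3 from 96000001.

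Other listed families lay wholly outside. Of the 59, 22 had 0 genes in members, among them the 65 cytochrome P450 genes of families 2, 3a and 4a, the 259 immunoglobulin segments, 53 keratins, 56 keratin-associated proteins, 67 protocadherins and 27 natural killer lectin receptors. With 120 members in place of 240 the number of families past 20% was 12, and with 480 it was 46.

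Read depth in most members was ordinary. The median member had 80386 WT input reads, against 76093 in the other bins and 76307 over all autosomal bins. The tails were wider: 14 members (5.83%) had more than 2 times the autosomal median, against 12 other bins (0.552%), and 7 members (2.92%) had less than 0.5 times it, against 3 other bins (0.138%). The deepest, on chromosome 2 from 98000001 to 99000000 with no protein-coding gene, had 4128732 WT input reads, 4537573 KO input reads, 2696727 and 3321782 WT ChIP reads and 113301 KO ChIP reads. Next came the bin on chromosome 9 from 3000001, with the tRNA methyltransferase gene Alkbh8 and the guanylate cyclase gene Gucy1a2, at 1397510 WT input reads, and the bin on chromosome 14 from 19000001 at 1070102. The shallowest were end bins, on chromosome 2 from 182000001 with 1417 WT input reads, on chromosome 9 from 2000001 with 1556 and on chromosome 12 from 120000001 with 3226. KO ChIP counts there were 28, 43 and 104, so their KO values have little precision.

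**Figure D4:**
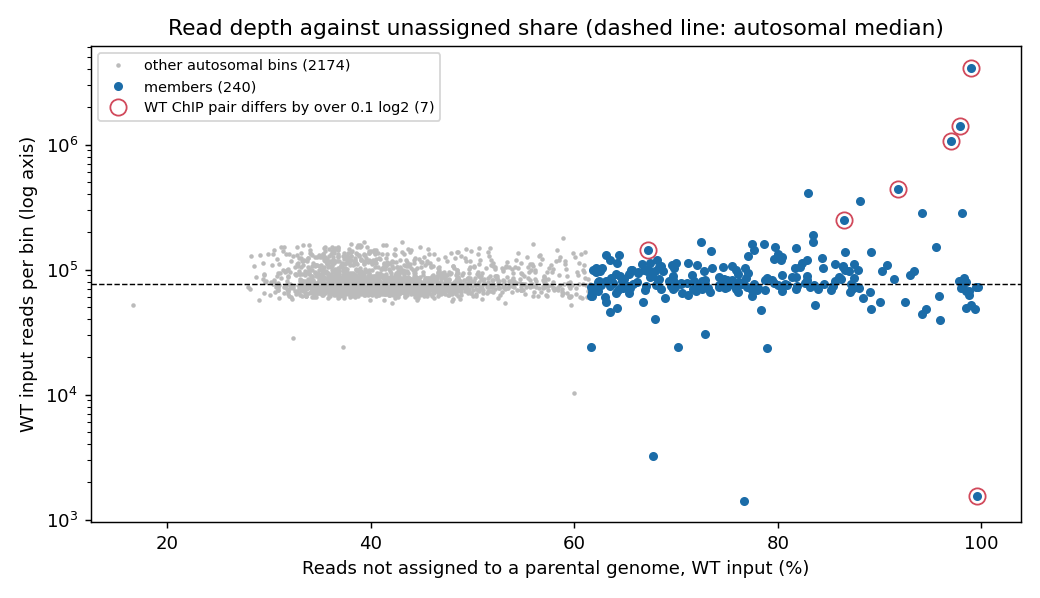
WT input reads per bin on a log axis (vertical) against the percentage of them not assigned to a parent (horizontal), for the 240 members (blue) and the 2174 other autosomal bins (grey), with the autosomal median of 76307 as a dashed line. The deepest bin, with 4128732 reads, is a member with a share of 99.0%, and the 7 ringed bins are those where the WT ChIP libraries differed by over 0.1 on the log2 scale.

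Together the members took 13.1% (WT ChIP 1), 13.8% (WT ChIP 2), 14.2% (KO ChIP), 13.5% (WT input) and 13.8% (KO input) of autosomal reads. The 14 deep bins accounted for most of the variation, with 4.01%, 4.79%, 5.33%, 4.56% and 4.93% in the same order, whereas the other 226 members took 9.06%, 8.97%, 8.83%, 8.97% and 8.85%. By allele class the members held 23.6% of unassigned and 4.53% of allele-assigned WT input reads. The median member had 19185 allele-assigned reads in the WT input and 414.5 in KO ChIP, against 43381.5 and 967 elsewhere. Genome1 made up 51.1% of the members' allele-assigned reads in WT input and 49.5% in KO input; the other bins had 51.2% and 51.1%. The sources used here do not say which of genome1 and genome2 is C57BL6.

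The next comparison asks where ChIP signal lay above or below input in each genotype. In SIRT7-KO cells such signal cannot be taken as SIRT7 binding, and a WT value above input alone does not show binding either. Values are differences between ChIP and its genotype's input in log2(CPM + 1), where CPM is a TMM-scaled count; calls come from edgeR's quasi-likelihood test over 2582 bins with Benjamini-Hochberg adjusted p under 0.05. The WT input enters both the ranking of members and the WT ratio; the KO input enters the minimum read count and not the ranking. Depth was uneven, at 4968189 reads for KO ChIP, 174003957 and 167007601 for WT ChIP and 224205689 and 219168466 for the WT and KO inputs, so a change of given size is called less often in KO. Only WT ChIP has replicates, which leaves 1 residual degree of freedom, and their spread stands for that of every group.

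As a set the members did not stand apart from the genome in ChIP over input. In WT, 99 members were called above input (41.2%; 37.6% of all bins tested) and 86 below (35.8%; 37.5%). In KO, 53 were above (22.1%; 21.6%) and 63 below (26.2%; 28.7%). The members' medians, relative to that of all autosomal bins, were 0.0029 and 0.0053 in the WT libraries and 0.017 in KO, on the log2 scale. Calls mostly lay on the same side in both genotypes: 51 members were above input in both (21.2%; 21.1% of all autosomal bins), 55 below in both (22.9%; 24.8%) and 1 was called on opposite sides (0.417%; 0.29%). These shares too were close to the background.

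Within the set, calls in WT differed with promoter sharing, though none of these contrasts was tested. Of the 40 members with a majority of their promoters shared, 29 were above input in WT and 4 below, with medians of 0.12 and 0.11 in the WT libraries and 0.064 in KO. Of the 74 with a minority shared, 36 were above and 17 below. Of the 107 with no shared promoter, 33 were above and 51 below, with medians of -0.027, -0.027 and -0.025. Of the 19 with no listed promoter, 1 was above and 14 below. In KO the same 4 groups had 17 above and 5 below, 16 above and 12 below, 19 above and 37 below, and 1 above and 9 below. Gene number differed along with sharing: the median numbers of protein-coding genes were 11.5, 12, 4 and 0. Its part in the result was not tested. Outside the set, the 222 bins with no listed promoter likewise had more calls below input in WT (39 above, 141 below), and the 505 with a minority shared had more above (246 and 131). The 1418 with no shared promoter had 535 above and 532 below. The 29 with a majority shared, which held a median of 2 protein-coding genes, had 5 above and 18 below, where the members of this kind had 29 and 4.

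**Figure D5:**
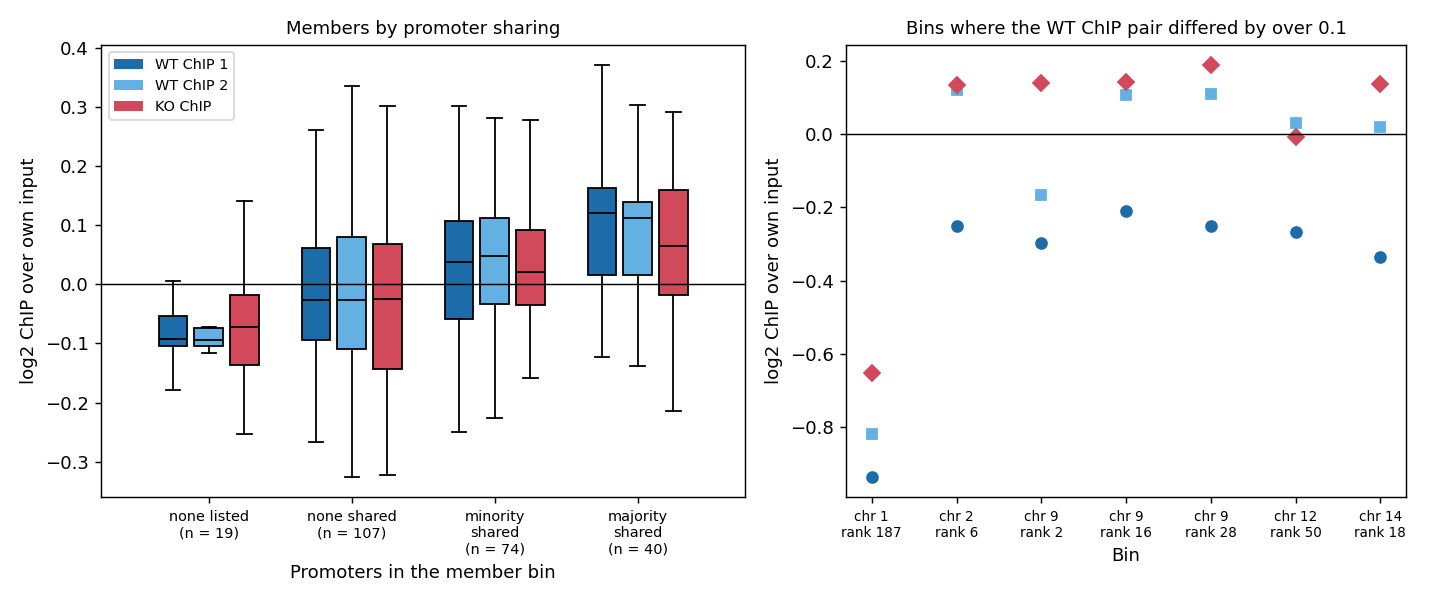
Left, log2 ChIP over own input of the 240 members by how many of their promoters are shared (box, quartiles; line, median; whiskers, values within 1.5 box heights), for each WT ChIP library and the KO ChIP library. Right, the same measure in the 7 bins where the WT libraries differed by over 0.1, as 1 point per library: circles for WT ChIP 1, squares for WT ChIP 2 and diamonds for KO ChIP. Medians rise from -0.092 and -0.095 in WT for bins with no listed promoter to 0.12 and 0.11 for bins with a majority shared; at right WT ChIP 1 is the lowest of the 3 libraries in every bin.

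The runs showed both directions. All 6 bins of the chromosome 12 run were above input in both genotypes, with medians of 0.32, 0.30 and 0.23 in WT ChIP 1, WT ChIP 2 and KO. All 5 bins at the start of chromosome 14 were also above in both, with medians of 0.18, 0.16 and 0.15. By contrast, all 8 bins of the Lrp1b and Zeb2 run were below input in both genotypes, with medians of -0.094, -0.11 and -0.17. The Cdh12 and Cdh18 run of chromosome 15 had 6 bins below in WT and 5 in KO, with medians of -0.12, -0.13 and -0.15. At the start of chromosome 14 the classes agreed in WT, with medians of 0.23 and 0.15 from allele-assigned and 0.18 and 0.16 from unassigned reads, but not in KO, with -0.25 and 0.15. The 5 bins there had only 2 to 338 allele-assigned KO ChIP reads each, and 2 of 5 gave the same sign in both classes. In the chromosome 12 run both classes of reads lay above input, with medians of 0.48, 0.39 and 0.14 from allele-assigned and 0.30, 0.28 and 0.24 from unassigned reads. In the Lrp1b and Zeb2 run both lay below, at -0.046, -0.093 and -0.21 from allele-assigned and -0.12, -0.12 and -0.15 from unassigned reads. Over all members the classes gave the same sign in 67.1%, 81.2% and 66.2% of bins in WT ChIP 1, WT ChIP 2 and KO, against 54.9%, 79.9% and 70.2% of the other bins. Agreement in sign depends in part on offsets of whole libraries. The other bins had medians of 0.054, 0.023 and -0.046 from allele-assigned reads, and -0.088, -0.038 and 0.013 from unassigned reads. The long olfactory run of chromosome 2 had 10 of 12 bins below in WT and 5 in KO, and the MHC run had 2 above and 3 below in WT.

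A family value is that of its bins, which can hold many other genes, and no family was tested. The shares of all bins tested, given above, were 37.6% above and 37.5% below in WT and 21.6% and 28.7% in KO. Of the 10 bins with type 1 vomeronasal receptors, 8 were above input in WT, 0 were below and 3 were above in KO, with bin medians of 0.12 in WT and 0.063 in KO. The 32 Zfp bins had 19 above and 3 below in WT, and 8 above and 3 below in KO. The 23 bins with solute carrier genes had similar counts, with 14 above and 4 below in WT and 7 and 1 in KO. The 20 olfactory bins had 5 above and 9 below in WT, and 1 above and 5 below in KO. Of the 4 MHC bins 3 were above input in both genotypes, and both major urinary protein bins were above in WT and not called in KO.

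Among single bins, the highest in WT was on chromosome 12 from 19000001, with predicted genes such as Gm5784. It had 47371 and 45124 WT ChIP reads, 47301 WT input reads, 1345 KO ChIP reads and 50216 KO input reads. Its log2 values were 0.37 in both WT libraries and 0.23 in KO, and its fitted fold over WT input was 1.29. The neighbouring bin from 20000001 had 0.37, 0.33 and 0.28. On chromosome 4 from 42000001, a bin of duplicated chemokine genes with Ccl21b, Ccl27b, Ccl19 and Ccl21a, which guide lymphocytes and dendritic cells, had 0.35, 0.34 and 0.27. On chromosome 5 from 117000001, the bin of the Sin3 complex gene Suds3 and the kinase gene Taok3 had 0.35, 0.33 and 0.30 and led the KO calls. In each of these bins the WT values lay within 0.05 of each other and KO lay on the same side.

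The bin on chromosome 11 from 3000001, with the centrosomal repeat gene Sfi1, had 0.34, 0.32 and 0.27 at 409539 WT input reads. Its call rests on the variance model: the edgeR log2 change was 0.33 with a standard error of 0.10 and an adjusted p of 0.00278, and limma-voom and edgeR without the dispersion floor did not call it. After the Suds3 bin, a further pair had the highest KO values among bins called in KO, both also above input in WT. The Vmn1r bin on chromosome 7 from 21000001 had 0.29 in KO against 0.13 and 0.12 in WT, and the bin on chromosome 2 from 31000001, with the deubiquitinase gene Usp20, had 0.29 against 0.24 and 0.26. The KO call of the Vmn1r bin was lost in edgeR without the dispersion floor (adjusted p 0.613) and with quasi-Poisson, and that of the Usp20 bin with quasi-Poisson. The highest KO value of any member, 0.43 in the end bin on chromosome 12 from 120000001, rested on 104 KO ChIP reads and was not called.

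The lowest member by far was the Col9a1 and Col19a1 bin of chromosome 1. It had 57605 and 59484 WT ChIP reads against 142136 WT input reads, and 1847 KO ChIP reads against 127752 KO input reads. Its log2 values were -0.94 and -0.82 in WT and -0.65 in KO, with a fitted fold of 0.544 in WT and 0.635 in KO. All 9 alternatives to the KO fit and all 10 to the WT fit called it. Its ChIP counts were near the autosomal medians of 59936.5 and 57139.5 reads in WT ChIP and 1763 in KO ChIP. Its input counts lay well above the medians of 76307 in WT and 78950 in KO. The low ratio thus went with high input counts, not with low ChIP counts. The gap between ChIP and input lay in the unassigned reads, which gave -1.88 and -1.52 in WT and -1.03 in KO. The allele-assigned reads of the same bin, 45905 in the WT input and 900 in KO ChIP, gave 0.052, 0.012 and -0.14, which in WT is close to input.

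Next lowest in WT were bins with few genes. On chromosome 15 from 23000001 the Cdh18 bin had -0.34 and -0.33 in WT and -0.29 in KO, at 167010 WT input reads; its KO call was lost with quasi-Poisson. The adjoining bin from 22000001 had -0.25, -0.24 and -0.16. On chromosome 2 from 44000001 the bin of Arhgap15, a Rac regulator of leukocytes, and Gtdc1 had -0.25, -0.23 and -0.25. On chromosome 15 from 43000001 the bin of the Wnt agonist gene Rspo2 and the translation factor gene Eif3e had -0.24, -0.21 and -0.21, a call lost in edgeR without the floor. In KO the bin on chromosome 3 from 60000001, with the arylacetamide deacetylase gene Aadac and the splicing regulator Mbnl1, reached -0.32, against -0.22 and -0.21 in WT.

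Replicate error was itself larger in some members than anywhere else on the autosomes. WT ChIP 1 and WT ChIP 2 lay more than 0.1 apart on the log2 scale in 7 bins, and all 7 were members (2.92%), against 0 of the 2174 other bins. WT ChIP 1 was the lower in all 7. In the 5 of these bins that also exceeded 2 times the autosomal median of WT input reads, on chromosomes 2, 9 (from 3000001 and from 35000001), 12 (from 3000001) and 14 (from 19000001), WT ChIP 1 lay at -0.33 to -0.21, WT ChIP 2 at 0.019 to 0.12 and KO at -0.0086 to 0.19. These 5 bins held 2.94% and 3.73% of autosomal WT ChIP reads, 4.30% of KO ChIP reads, 3.52% of WT input reads and 3.91% of KO input reads. Reads of mitochondrial DNA stood in the same order among the 3 ChIP libraries, at 0.0126%, 0.0297% and 0.0408%, but not in the inputs, where WT was higher (0.217%) than KO (0.181%) and both exceeded every ChIP library. The Col9a1 bin, also among the 7, had unassigned reads in the mitochondrial order across all 5 libraries. They stood at 114.6 CPM (WT ChIP 1), 147.8 (WT ChIP 2), 187.4 (KO ChIP), 382.8 (KO input) and 424.8 (WT input). Its allele-assigned reads did not keep that order, at 211.7, 205.9, 181.9, 200.9 and 204.2 CPM for the same libraries. The part of mitochondrial reads in these results was not tested. The direction of ChIP over input in the 5 deep bins depended on which WT library was used, and 4 of them were not called in WT. The exception, on chromosome 12 from 3000001 with the kinesin gene Kif3c and the small GTPase gene Rab10, was called below input (log2 change -0.11, standard error 0.041, adjusted p 0.00962 in edgeR) although WT ChIP 2 stood at 0.030.

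Splitting the reads by allele class showed where these WT differences lay; both classes were scaled by the library sizes of all reads. In the bin on chromosome 2 from 98000001 the unassigned reads stood at -0.25 and 0.12 in WT ChIP and 0.14 in KO, and the allele-assigned reads at -0.16, -0.22 and -0.41. On chromosome 9 from 35000001 the unassigned reads gave -0.28, 0.12 and 0.22, and the allele-assigned reads 0.018, -0.018 and -0.17. On chromosome 14 from 19000001 the values were -0.35, 0.016 and 0.14 from unassigned reads, and 0.15, 0.098 and 0.0092 from allele-assigned reads. In all 3 bins the WT libraries lay far apart in unassigned reads and close together in allele-assigned reads.

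Allele assignment also shifted slightly between ChIP and input. The unassigned share of members was lower in both WT ChIP libraries than in the WT input in 191 bins (79.6%; 88.5% of all autosomal bins tested), with median shifts of -1.31 and -0.51 percentage points. Both libraries were higher in 16 members (6.67%), a larger share than the 28 of all 2414 autosomal bins tested (1.16%). In KO the shift ran upward, with a median of 0.42 points and 153 members above input (63.8%; 69.4%). The other bins had medians of -2.47, -1.05 and 1.00 points, so the median shifts had the same signs outside the set.

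The comparison of WT with KO asks whether ChIP over input differs between the genotypes. Among members 5 were higher in WT (2.08%; 2.44% of all bins tested) and 1 lower (0.417%; 0.387%) by the edgeR interaction test. The median difference relative to all autosomal bins was -0.0031. The highest was the major urinary protein bin on chromosome 4 from 60000001, with Mup2, Mup6, Mup7 and Mup8. It had 41046 and 38768 WT ChIP reads over 48457 WT input reads, and 1085 KO ChIP reads over 50403 KO input reads. Its values were 0.12 and 0.11 in WT and -0.081 in KO, a difference of 0.20 with a standard error of 0.054 and an adjusted p of 0.0147 in edgeR. The zinc-finger bin on chromosome 4 from 146000001, with Zfp987 and Zfp600, had 0.10 and 0.073 in WT and -0.089 in KO (difference 0.18, standard error 0.039, adjusted p 0.00175 in edgeR) and is the member called on opposite sides.

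The remaining higher bins differed by 0.17, 0.16 and 0.14. They were the bin of the glucuronyltransferase gene B3gat1 on chromosome 9 from 26000001, the bin of Cyp7a1, the rate-limiting enzyme of bile acid synthesis, on chromosome 4 from 6000001, and a bin with 1 protein-coding gene on chromosome 3 from 6000001. In the B3gat1 bin unassigned reads gave 0.084 and 0.085 in WT and 0.014 in KO, and allele-assigned reads 0.14, 0.11 and -0.29. In the Cyp7a1 bin they gave -0.14, -0.11 and -0.19, and -0.011, -0.068 and -0.39. In the chromosome 3 bin they gave -0.062, -0.073 and -0.19, and 0.12, -0.021 and -0.19. These bins had 378, 482 and 265 allele-assigned KO ChIP reads. The lower bin was that of Col9a1, with a difference of -0.22 and an adjusted p of 0.000174 in edgeR. In the Col9a1 bin only the unassigned reads were lower in WT, at -1.88 and -1.52 against -1.03 in KO. Its allele-assigned reads had the opposite order, with 0.052 and 0.012 in WT and -0.14 in KO. By all reads, both WT libraries lay on one side of the KO value in each of the 6, which was a condition for naming a bin. All 6 calls rest on 1 KO ChIP library of 4968189 reads; the Mup bin had 40 allele-assigned reads in it. None of these 6 bins passed in DESeq2, limma-voom, edgeR without the floor or quasi-Poisson, and 4 of them also failed with library totals or TMM from autosomal bins; the zinc-finger and Col9a1 bins passed in those.

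Among called bins, the widest differences between WT and KO cells were in the inputs. They are 1 library against 1, and measure DNA content and mappable reads rather than SIRT7 binding. An effect of SIRT7 loss cannot be told apart here from other differences between the cells or libraries. In edgeR 91 members were higher in WT (37.9%; 35.2% of all bins tested) and 91 lower (37.9%; 41.6%). Whole chromosomes also differed between the inputs, so each member was also set against the median of its chromosome's other bins. On that scale 21 members (8.75%) lay beyond 0.1 on the log2 scale, against 57 of the 2174 other bins (2.62%). Members with a majority of promoters shared had 6 of 40 beyond 0.1 (15%) and those with no shared promoter 3 of 107 (2.80%).

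The highest were the Vmn1r bins of chromosome 7. The bin from 22000001 had 62823 WT and 41203 KO input reads, a log2 difference of 0.56, while the chromosome's other bins had a median of 0.025. The bins from 21000001 and 20000001 stood at 0.51 and 0.46. The secretoglobin bin on the same chromosome, from 32000001, stood at 0.29. Over chromosome 7, genome1 made up 58.4% of allele-assigned WT input reads and 30.6% of allele-assigned KO input reads. The chromosome's total thus differed little between the inputs while its parental makeup differed, and in these bins the total differed. On chromosome 1 the bin from 85000001 stood at 0.26 against a chromosome median of 0.0019, with genome1 at 35.6% in WT and 61.9% in KO.

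In the other direction, the beta defensin bins on chromosome 8 from 20000001 and 19000001 had differences of -0.35 and -0.30, against -0.18 for the rest of the chromosome. The bin on chromosome 12 from 22000001 had -0.30, against -0.22 for its chromosome. Without the dispersion floor edgeR did not call the chromosome 8 bin from 20000001 (adjusted p 0.782) or the chromosome 12 bin (0.0917). The bin on chromosome 14 from 19000001 stood at -0.14 on a chromosome with a median of 0.21, at 1070102 and 1141861 reads, though its edgeR adjusted p was 0.716. These differences in input enter each genotype's ChIP over input as its denominator.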

How the data were processed

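The deposited table holds read counts per 1 Mb bin for all, genome1, genome2 and unassigned reads of each of the 5 libraries, as the authors made them. The submitters' processing notes name Bowtie2 2.2.9 and SAMtools 0.1.19, Trimmomatic 0.36, FastQC 0.11.3 and mm10. The method of allele assignment and the treatment of duplicate or multiply mapping reads are not given in the sources used here. A second deposited table of ratios was not used. Each library has a remainder of reads in none of the 3 allele classes, a median of 0.26% of WT input reads in members and 0.72% in other bins. Intervals cover counting error only.

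The quasi-likelihood test of edgeR 4.0.16 in R 4.3.3, with TMM scaling and a mean for each of 4 groups, was run over 2582 bins (autosomes and X, mean count of 100 or more), with Benjamini-Hochberg adjustment at 0.05. The dispersion was floored at 1e-04, a value chosen after calls without it had been seen; 2513 bins lay under it. Tested on simulated data with the same 2582 bins, WT ChIP over input recovered 99% of seeded log2 changes of 0.1 and WT minus KO 12% of changes of 0.1 and 100% of changes of 0.3. The simulated counts were drawn with the floor itself, 1e-04, as their dispersion. Some members had a far wider spread between the WT ChIP libraries, and for these the recovery does not apply. In members the WT ChIP pair had a median chi-square of 6.04 per bin, where counting noise gives 0.455, so they are not one library deposited in duplicate; the labels number them as replicates. Genes, promoters and families came from RefSeq tables of GRCm38.p6, each gene placed by its midpoint.

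The members, gene families, bins and tests were chosen with earlier results of these data known. Bins named were the 10 highest in share, those at the edge of the list, the 3 deepest and 3 shallowest, the 5 longest runs, and among called bins the 5 highest and lowest for WT ChIP over input and WT minus KO and the 3 highest and lowest for KO and for the inputs. Bins and runs beyond these, the grouping by promoter sharing, the split by allele class and the comparison with each chromosome's other bins were chosen after values were seen. Alternatives included limma-voom (limma 3.58.1), DESeq2 1.42.0, changed scaling, read minimum, floor and pseudocount, 120 or 480 members, either WT ChIP library left out and ranking by the KO input.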

Additional observations from a re-analysis of the deposited data

Results flagged for a closer look

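The WT minus KO difference of ChIP over input passed the edgeR interaction test in 5 members that were higher and 1 that was lower in WT, and these are the results in which the genotypes' effects differed. On the log2 scale the differences were 0.2 in the bin of Mup genes on chromosome 4 from 60000001, 0.178 in the zinc-finger bin on chromosome 4 from 146000001 and 0.165 in the B3gat1 bin on chromosome 9 from 26000001. They were 0.158 in the Cyp7a1 bin on chromosome 4 from 6000001, 0.143 in the bin on chromosome 3 from 6000001 and -0.224 in the Col9a1 bin on chromosome 1 from 24000001. Allele-assigned reads of the Col9a1 bin had the opposite order, with 0.052 and 0.012 in WT and -0.14 in KO. The 6 calls make up shares of the members close to those of all bins tested, and none of the 6 bins passed in DESeq2, limma-voom, quasi-Poisson or edgeR without the floor.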

How the results depend on the processing

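Of 160 alternative values, 107 planned and 15 added ones stayed near the main value. No paired analysis was possible because only the WT ChIP libraries carry replicate numbers. Percentages of members called above and below input in KO were 10.0% and 12.5% with limma-voom, 4.58% and 9.58% without the dispersion floor, and 0.417% and 0.833% with quasi-Poisson. Members higher in WT than KO came to 0% with DESeq2, limma-voom, no floor and quasi-Poisson, 0.417% with library totals and with TMM from autosomal bins, and 8.75% with the floor 2 times as high. Members lower came to 0% with DESeq2, no floor and quasi-Poisson, 1.25% with autosomal TMM, 2.5% with the higher floor, 0% among the 120 highest bins and 0.833% among 480. With limma-voom the share lower was 0.417%, from a bin other than the Col9a1 bin. At an unadjusted p under 0.05, DESeq2 gave 15 higher and 14 lower, limma-voom 4 and 3, edgeR without the floor 14 and 6 and quasi-Poisson 0 and 1, against 33 and 14 in the edgeR fit reported.

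Members' median log2 values relative to all autosomal bins were small under each setting run. In WT (0.0030) they were -0.0036 with 120 bins, 0.017 with 480, 0.0051 without the deep members and -0.012 from summed counts, and 0.0029 to 0.0053 with 1 WT library left out. In KO (0.017) they were 0.0090, 0.029, 0.015 and 0.039 in the same order, and 0.014 when ranked by the KO input. The WT minus KO median (-0.0031) was 0.012 with 120 bins, -0.0070 with 480, -0.000185 without the deep members and -0.051 from summed counts, and 7.6e-05 to 0.0031 with 1 WT library left out, so its sign depended on the setting. Shared promoters were 27.6% against 6.32% with 36-base windows, and 17.2% against 1.82% with 100-base windows. KO depth limits single bins: the shallowest member had 28 KO ChIP reads.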
